A study of Homo sapiens with 9 samples.

Results

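The data were the expression arrays of A549 cells given either of 2 small interfering RNA (siRNA) mixtures, set together against cells given a control siRNA. All 9 arrays of the series entered: 3 with si-FAM210B, 3 with si-UQCRC2 and 3 with the si-negative control, each taken 72 h after transfection. For each row of the array table the mean of the si-FAM210B and si-UQCRC2 group means was compared with the mean of the 3 control arrays, in log2 units, so that a change of 1 is a doubling of the signal. Rows were kept when they carried exactly 1 gene symbol and a mean over the 9 arrays no lower than the median row mean of 4.25, so that 16863 of 67528 rows were tested. A row was called common when the mean of both siRNAs differed from control at an adjusted p under 0.05 in limma and each siRNA group lay on the same side of control. That rule called 668 rows of 651 genes, or 3.96% of the rows tested. A549 is an established human lung adenocarcinoma line, so the results describe 1 cell line. Replicates are named biological in the labels without a word on separate cultures, and the p-values given here therefore reflect array-to-array spread, which may be technical. Both siRNA groups were compared with the same 3 control arrays, so a departure of the control arrays and a response to both siRNAs cannot be told apart.

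An siRNA is a short double-stranded RNA whose guide strand directs the cutting of matching messenger RNA. FAM210B encodes a protein of the mitochondrial membrane, and UQCRC2 encodes a core subunit of complex III, the part of the respiratory chain that passes electrons from ubiquinol to cytochrome c. A control siRNA is meant to have no target, so that cells of both arms have been through transfection. Messages that move the same way under both siRNAs therefore describe what these cells had in common when compared with the control cells.

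The targeted messages were read first. UQCRC2 read 9.96, 9.84 and 9.70 in the control arrays, 9.25, 9.83 and 9.82 with si-FAM210B, and 8.34, 8.37 and 8.37 with si-UQCRC2. The si-UQCRC2 arrays lay below all others, at 36.0% of control (log2 change -1.47, limma adjusted p = 0.000413). The change with si-FAM210B was -0.20 (adjusted p = 0.354). UQCRC2 met the rule for a common call, and it did so with group values that overlap between si-FAM210B and control. FAM210B read 6.39, 6.46 and 6.48 in control, 6.48, 6.10 and 6.22 with si-FAM210B, and 6.46, 6.53 and 6.40 with si-UQCRC2. Its si-FAM210B and control arrays overlapped (change -0.17, adjusted p = 0.242), so a lower FAM210B message was not detected in the arrays labelled si-FAM210B.

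Some arrays stood apart within their groups. In a principal component analysis of the rows kept, the first component took up 55.0% of the variance and placed replicate 1 of si-FAM210B at -33.8, far below its fellow replicates at -0.797 and -8.49. It also placed replicate 3 of the control at -7.18, below 0 where its fellow controls lay above 0. Both arrays departed from their group means in a related way (r = 0.734 across rows, which are not independent replicates). Spread within a group was widest for si-FAM210B, with a median SD of 0.130, against 0.0873 in control and 0.0380 with si-UQCRC2. Among the markers of the line, KRT8 ranged from 11.10 to 11.54 over the 9 arrays and KRT18 from 11.15 to 11.70. Rows of PTPRC, PECAM1 and DCN, which mark blood, endothelial and fibroblast cells, did not pass the filter on level. Of 12 listed markers of other cell types, however, 8 had a row that passed. The blood cell markers CD3E and CD14 and the fibroblast markers COL1A1, COL1A2 and PDGFRB had rows above the filter.

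The common response was mostly small. Of the 668 rows, 410 were higher and 258 lower under both siRNAs, which is 2.43% and 1.53% of the rows tested. In all, 4.13% of rows passed the test before the same sign was required, and 28 of the 696 then dropped out. The median change was 0.34 among the rows called higher and -0.30 among those called lower, against 0.01 over all rows. At least a 1.5-fold mean change was seen in 42 higher and 13 lower rows, and 19 higher and 4 lower rows reached it in each siRNA group. STC1, MT2A, GREM1 and the metallothionein pseudogene MT1CP were the 4 rows that at least doubled in each. All 6 siRNA arrays lay outside the control range in 559 of the 668 rows, or 83.7% (all rows: 8.69%, of which 4.05 points above and 4.64 points below control). Taken alone, the si-FAM210B comparison called 443 of the 668 (5.97% of all rows) and the si-UQCRC2 comparison 409 (4.51% of all rows), both against the same controls. The 668 were selected by a test of these same arrays. Their counts without overlap and in each comparison follow largely from that selection and are descriptions, not further support. Size differed between the siRNAs for 239 of the 668 (35.8%; 9.89% of all rows), with the larger change under si-FAM210B in 120 and under si-UQCRC2 in 119. Protein-coding genes made up 633 of the 668 rows.

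The number of calls depended strongly on which arrays were fitted. In each fit a row had 1 estimate of spread, pooled over the 3 groups and used for both siRNAs. Leaving out an array therefore changed standard errors as well as means, and their parts in these counts were not tested. Without si-FAM210B replicate 1 the number of calls was 1360 (761 higher, 599 lower), and without that array and control replicate 3 together it was 3099 (1353 higher, 1746 lower). It fell to 229 and 222 without control replicate 1 or 2, to 426 without si-FAM210B replicate 3, and to 294, 304 and 331 without si-UQCRC2 replicate 1, 2 or 3. With the 6 siRNA arrays fitted as 1 group, which adds the differences between the siRNAs to the spread, it was 157. List counts given below for an alternative fit stand against the total of that fit, not against 2.43% and 1.53%. At an unadjusted p under 0.05 in limma with all arrays and the same sign in each siRNA group, 7.21% of all rows were higher and 8.61% lower. The mean change of both siRNAs kept its sign for all 668 in each of these fits, whereas signs within each siRNA group were not compared with the main fit.

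**Figure D1:**
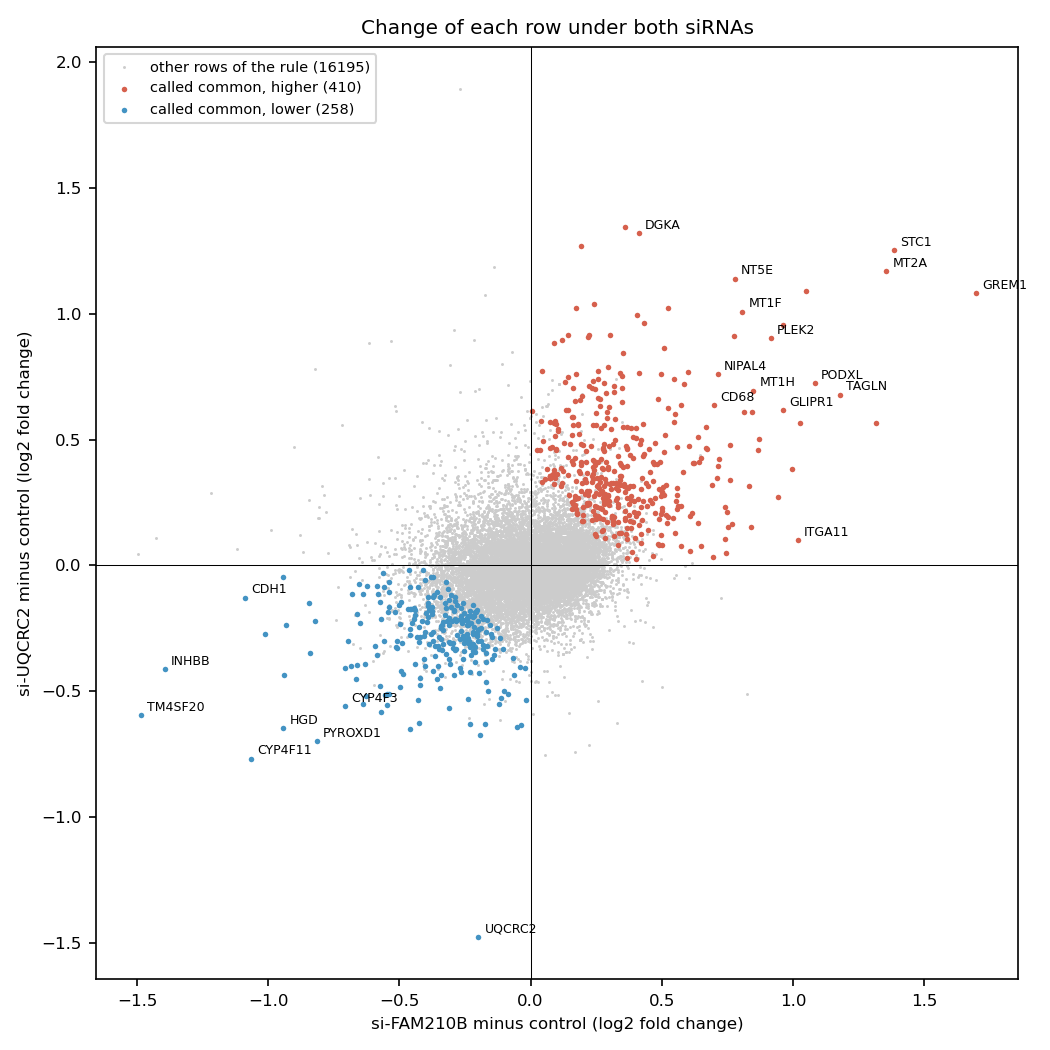
Log2 change against control of each of the 16863 rows under si-FAM210B (horizontal) and under si-UQCRC2 (vertical), both computed against the same 3 control arrays. Red points are the 410 rows called higher and blue points the 258 called lower under both siRNAs; STC1, MT2A and GREM1 lie farthest along the shared upward direction, and UQCRC2 lies low on the vertical axis alone.

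Metallothioneins, small cysteine-rich proteins that bind zinc and copper, were prominent among the shared increases. Of 14 rows for MT1 and MT2 genes and pseudogenes, 7 rose under both siRNAs, against a background of 2.43% of rows called higher. The median change of the 14 was 0.43, and each of the 14 had a mean change above 0. MT2A, the most widely expressed member, read 9.56, 9.57 and 9.65 in the control arrays, 11.17, 10.87 and 10.81 with si-FAM210B, and 10.75, 10.70 and 10.83 with si-UQCRC2. All 6 siRNA arrays lay at least a full unit above every control array. The mean change was 1.26 ± 0.08 (SE; limma adjusted p = 5.81e-05), or 2.40-fold, and the 2 siRNAs differed by 0.19 ± 0.09 (adjusted p = 0.186).

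MT1F read 6.33, 6.16 and 6.06 in control, 7.08, 7.14 and 6.75 with si-FAM210B, and 7.21, 7.21 and 7.15 with si-UQCRC2. The groups did not overlap, and the mean change was 0.91 ± 0.09 (adjusted p = 0.000587). MT1H read 6.87, 6.79 and 7.15 in control, 8.12, 7.66 and 7.57 with si-FAM210B, and 7.66, 7.51 and 7.72 with si-UQCRC2. Its siRNA arrays were again all above control (0.77 ± 0.12, adjusted p = 0.00766), and the call was lost without control replicate 1 or 2. MT1X was higher by 0.41 with si-FAM210B and by 0.76 with si-UQCRC2, a difference between the siRNAs that passed its own test (adjusted p = 0.0108). MT1G changed by 0.71 and 0.40, and the pseudogenes MT1CP and MT1JP by 1.05 and 1.09 and by 0.67 and 0.55. The remaining 7 rows, among them MT1E, MT1M and MT1B, had mean changes of 0.08 to 0.30 that did not pass the test. These genes are close copies of one another, so signal may be shared between their rows, and the values of single members are uncertain for that reason. The list of metallothionein and zinc genes, which holds no pseudogene rows beyond MT1L, had 5 of 13 tested members called higher (background 2.43%), and 3 without control replicate 1 or 2. Outside the MT1 and MT2 genes, MTF1, the zinc-sensing transcription factor of these genes, changed by -0.10 and 0.01 and the zinc exporter SLC30A1 by -0.03 and 0.10, and neither passed the test.

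Metallothionein promoters are known for metal response elements, short sites bound by MTF1. The promoters below are shown because they let the called members be set beside one that was not called. They are RefSeq sequences of GRCh38.p14, 250 bases before to 50 bases after the start, read on the gene's strand. Capitals mark matches to TGCACNC or TGCGCNC, the core of the element, searched on both strands with overlapping matches counted. The table of promoters held 3 of the 7 called members, MT2A at chr16:56608334-56608633, MT1H at chr16:56669564-56669863 and MT1X at chr16:56682220-56682519, all on the plus strand of chromosome 16, and 1 of the 7 not called, MT1B at chr16:56651636-56651935, also on the plus strand.
MT2A: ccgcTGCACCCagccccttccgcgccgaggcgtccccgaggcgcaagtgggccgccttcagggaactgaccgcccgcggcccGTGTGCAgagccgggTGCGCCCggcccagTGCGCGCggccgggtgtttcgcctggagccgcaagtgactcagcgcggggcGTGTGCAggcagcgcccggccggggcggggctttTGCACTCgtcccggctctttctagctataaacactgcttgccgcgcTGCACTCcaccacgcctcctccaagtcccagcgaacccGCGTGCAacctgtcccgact
MT1H: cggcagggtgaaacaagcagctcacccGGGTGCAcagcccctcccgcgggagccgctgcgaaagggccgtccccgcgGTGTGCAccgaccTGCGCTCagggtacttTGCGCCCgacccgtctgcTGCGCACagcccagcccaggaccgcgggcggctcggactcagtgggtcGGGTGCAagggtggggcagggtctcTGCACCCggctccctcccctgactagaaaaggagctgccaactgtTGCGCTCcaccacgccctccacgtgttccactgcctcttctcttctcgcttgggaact
MT1X: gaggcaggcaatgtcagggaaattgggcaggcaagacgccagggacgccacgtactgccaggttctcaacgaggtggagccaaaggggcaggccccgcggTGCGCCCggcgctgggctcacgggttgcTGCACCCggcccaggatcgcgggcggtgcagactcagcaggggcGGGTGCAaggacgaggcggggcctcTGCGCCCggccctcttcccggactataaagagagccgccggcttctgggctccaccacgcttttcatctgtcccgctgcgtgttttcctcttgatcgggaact
MT1B: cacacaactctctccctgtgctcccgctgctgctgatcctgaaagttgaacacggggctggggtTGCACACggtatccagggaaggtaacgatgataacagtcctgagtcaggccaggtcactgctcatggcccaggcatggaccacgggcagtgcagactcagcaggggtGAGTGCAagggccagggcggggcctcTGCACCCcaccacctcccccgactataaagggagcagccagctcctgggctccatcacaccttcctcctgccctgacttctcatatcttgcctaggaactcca
MT2A and MT1H held 8 matches each, MT1X 4 and the uncalled MT1B 3. Over 35116 promoters of the same length, 29.6% held at least 1 match and 2.30% held at least 3. A match is a description of the letters and not a site shown to be bound.

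**Figure D2:**
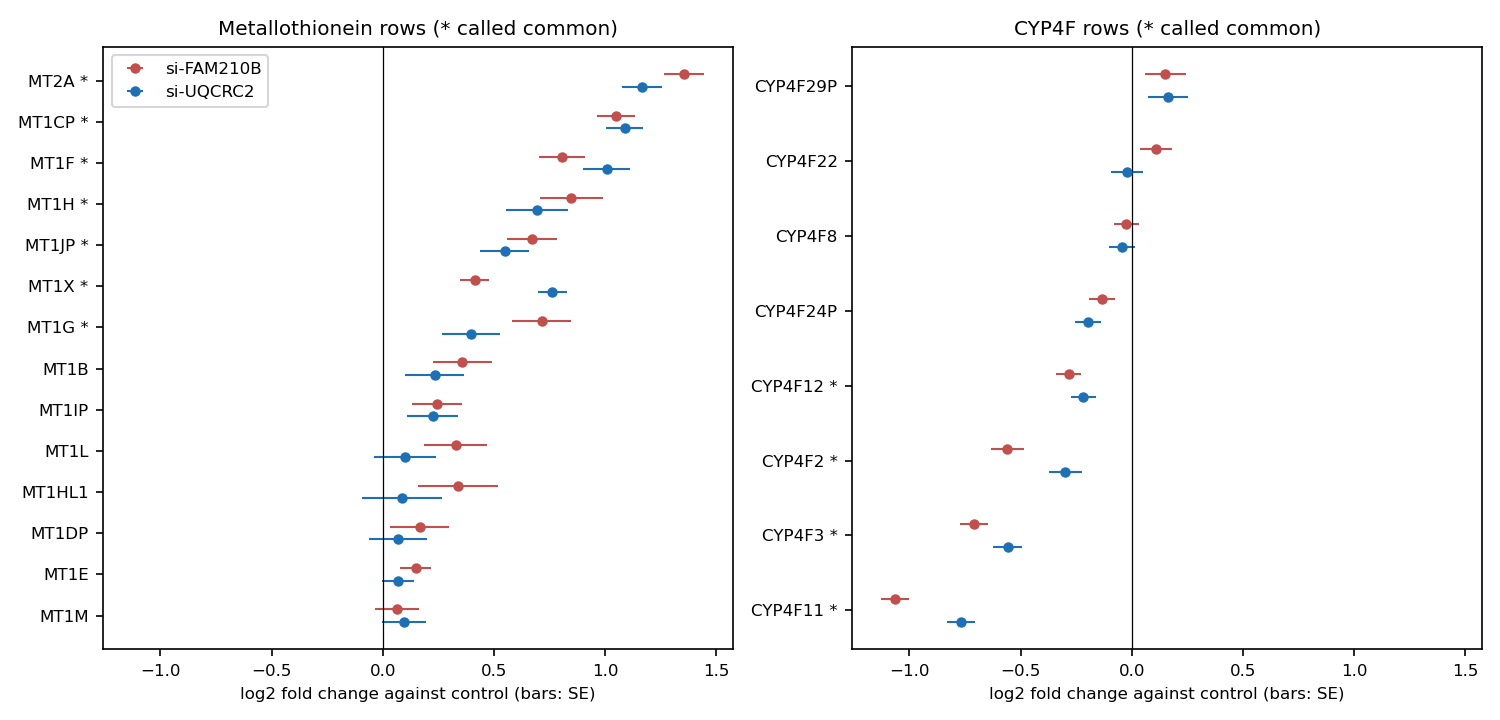
Log2 change against control for the 14 metallothionein rows (left) and the 8 CYP4F rows (right), with red points for si-FAM210B, blue points for si-UQCRC2 and bars for the standard error of limma; an asterisk marks rows called common. All 14 metallothionein rows have a mean change above 0, and the 4 CYP4F rows called lie below 0 under each siRNA.

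The 14 largest protein-coding increases included secreted and cell-surface proteins. STC1, on chromosome 8, encodes the secreted glycoprotein stanniocalcin 1 and read 6.76, 6.66 and 6.73 in control, 7.95, 8.17 and 8.20 with si-FAM210B, and 8.10, 7.83 and 7.98 with si-UQCRC2. The 6 siRNA arrays were all more than a unit above the controls (1.32 ± 0.08, adjusted p = 5.54e-05, 2.49-fold). GREM1, which is secreted and blocks bone morphogenetic proteins, read 6.82, 6.92 and 6.72 in control, 8.25, 8.59 and 8.71 with si-FAM210B, and 7.88, 7.94 and 7.89 with si-UQCRC2. It was higher under both siRNAs, and more so under si-FAM210B (changes 1.70 and 1.08, difference 0.62 ± 0.11, adjusted p = 0.00761). NT5E, the surface enzyme that makes adenosine from AMP, read 7.08, 6.98 and 6.78 in control, 7.50, 7.88 and 7.79 with si-FAM210B, and 8.12, 8.08 and 8.05 with si-UQCRC2. The 2 siRNA groups lay apart from control and from each other in these arrays, and the difference of -0.36 between them did not pass its test (adjusted p = 0.0599). PODXL, a surface sialomucin, changed by 1.08 and 0.73, and P2RY2, a receptor for extracellular nucleotides, by 0.42 and 0.31. NT5E and P2RY2 were the 2 called of 14 tested genes of extracellular adenosine and nucleotides (background 2.43%). P2RY2 is not among the 14 largest increases.

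The 14 also included proteins of the cytoskeleton. PLEK2, a pleckstrin family protein of actin remodelling, read 6.97, 7.02 and 7.06 in control, 7.90, 7.96 and 7.93 with si-FAM210B, and 7.95, 7.91 and 7.90 with si-UQCRC2. Here both siRNA groups reached nearly the same level, with a difference of 0.01 ± 0.05 between them (adjusted p = 0.883) and a mean change of 0.91 ± 0.04 (adjusted p = 3.86e-05). TAGLN, the actin-binding protein transgelin, read 6.27, 6.23 and 6.44 in control, 7.52, 7.43 and 7.54 with si-FAM210B, and 7.07, 6.95 and 6.97 with si-UQCRC2. Its rise was larger under si-FAM210B (1.18 against 0.68, adjusted p of the difference 0.00274). NAV3, a microtubule-associated neuron navigator, changed by 0.96 under each siRNA (mean change 0.96 ± 0.11, adjusted p = 0.00158), with si-FAM210B replicate 1 at 6.59, the lowest of the 6 siRNA arrays, against at most 6.04 in control. ARHGDIB changed by 0.77 and 0.91. Its control mean of 4.11 lay below the filter level of 4.25. It passed because its siRNA arrays, at 4.77 to 5.09, raised its mean over the 9 arrays to 4.67. The other genes among the 14 largest increases were NIPAL4 (0.71 and 0.76), CD68 (0.70 and 0.64) and GLIPR1 (0.96 and 0.62).

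**Figure D3:**
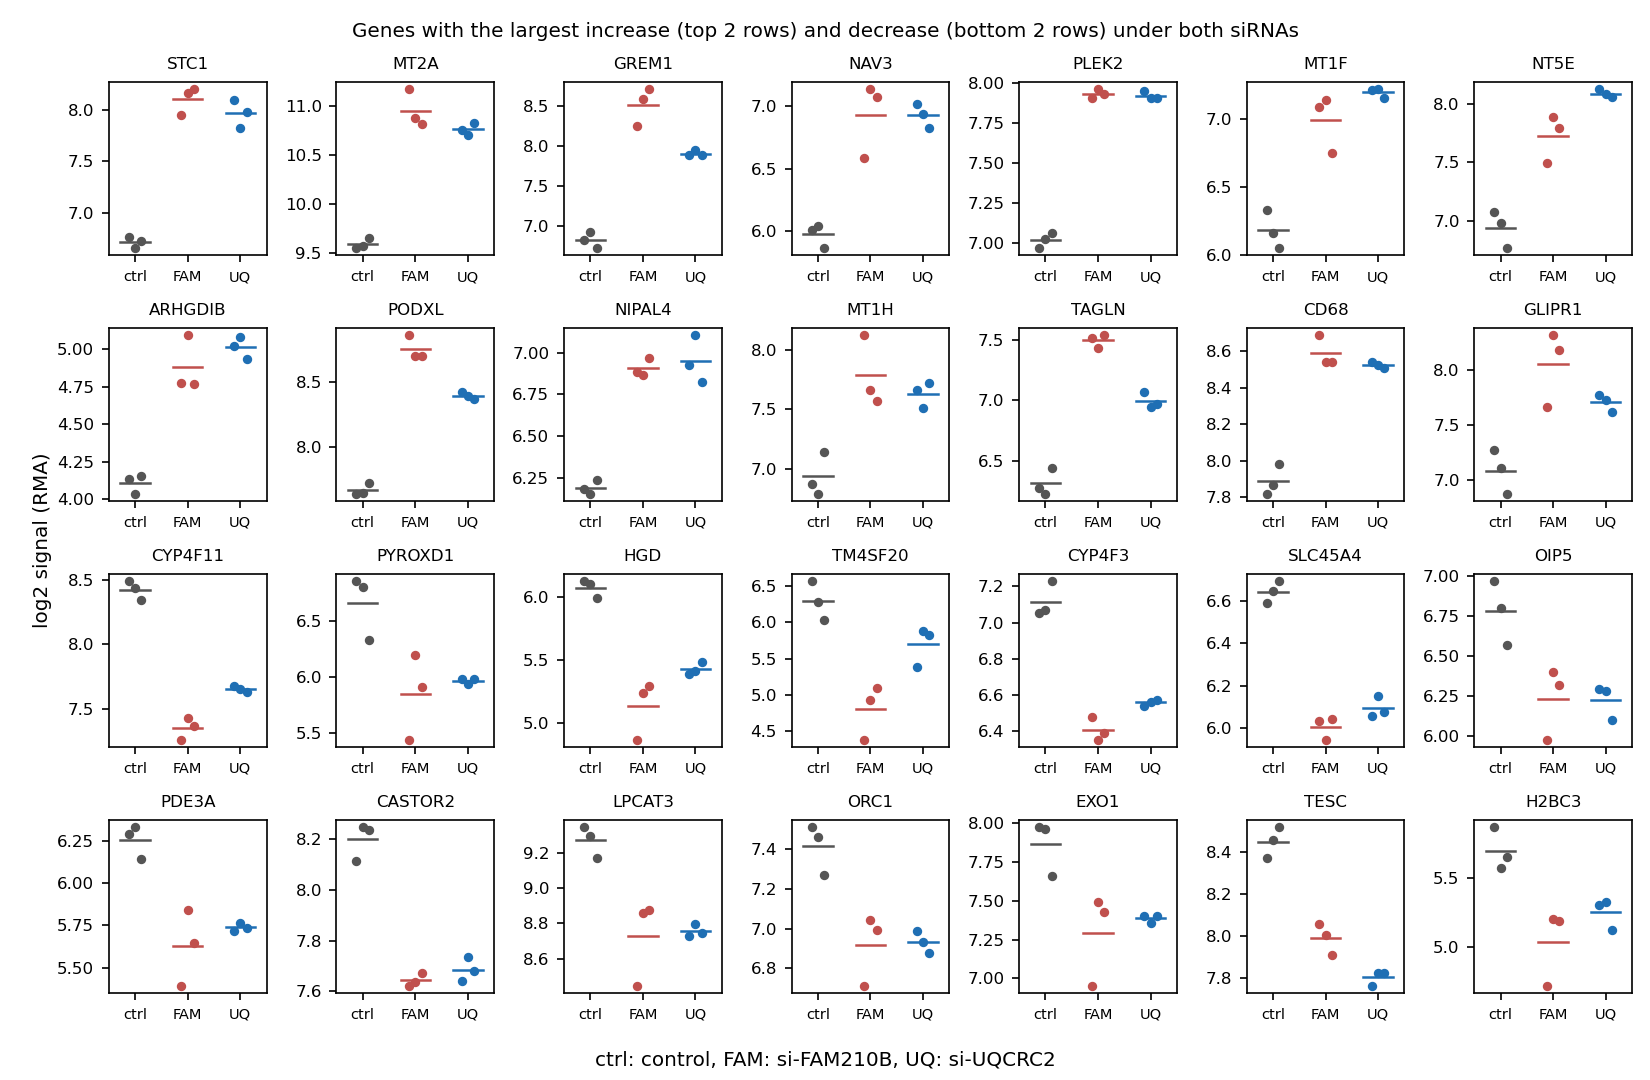
Log2 signal in each array (points) and group mean (lines) for the 14 protein-coding genes with the largest shared increase and the 14 with the largest shared decrease; each panel has its own vertical axis, which does not start at 0. Control, si-FAM210B and si-UQCRC2 are grey, red and blue, and in every panel all 6 siRNA arrays lie on the same side of the 3 control arrays, as the choice of these genes required.

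The largest shared decreases included enzymes of lipid and amino acid oxidation. CYP4F11, a cytochrome P450 that hydroxylates fatty acids at their far end, read 8.49, 8.44 and 8.35 in control, 7.27, 7.43 and 7.37 with si-FAM210B, and 7.68, 7.65 and 7.64 with si-UQCRC2. The siRNA arrays were all lower (-0.92 ± 0.05, adjusted p = 5.54e-05), and lower still under si-FAM210B (adjusted p of the difference 0.0173). CYP4F3, which inactivates leukotrienes, read 7.05, 7.07 and 7.23 in control, 6.48, 6.35 and 6.39 with si-FAM210B, and 6.54, 6.56 and 6.57 with si-UQCRC2. It fell without overlap (-0.63 ± 0.06, adjusted p = 0.000395). Of 8 CYP4F rows, 4 fell, with CYP4F2 at -0.56 and -0.30 and CYP4F12 at -0.28 and -0.22, against a background of 1.53%. The 4 others, CYP4F22, CYP4F8 and the pseudogenes CYP4F24P and CYP4F29P, had mean changes of -0.17 to 0.16 that did not pass. The 4 that fell lie on chromosome 19 and resemble one another in sequence, so their rows may share signal. HGD, the homogentisate dioxygenase of tyrosine breakdown, read 6.12, 6.11 and 5.99 in control, 4.87, 5.23 and 5.29 with si-FAM210B, and 5.39, 5.41 and 5.49 with si-UQCRC2, and was lower in all 6 siRNA arrays (-0.79 ± 0.09, adjusted p = 0.00118). HPD, the enzyme that forms homogentisate in that pathway, fell by less, at -0.22 and -0.27 (adjusted p = 0.0283). HGD and HPD were the 2 called of 23 tested genes of amino acid breakdown (background 1.53% lower), and HGD alone was called without control replicate 1 or 2 or any 1 of the si-UQCRC2 arrays.

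The 14 largest decreases also held genes of other roles. TM4SF20, a membrane protein of the TM4SF family, fell more under si-FAM210B (-1.49) than under si-UQCRC2 (-0.59; adjusted p of the difference 0.0245). LPCAT3, an acyltransferase that puts polyunsaturated chains into phospholipids, changed by -0.54 and -0.51, and PDE3A, a cyclic nucleotide phosphodiesterase, by -0.63 and -0.52. CASTOR2, a relative of the arginine sensor of the mTORC1 pathway, read 8.12, 8.25 and 8.24 in control, 7.62, 7.64 and 7.67 with si-FAM210B, and 7.64, 7.73 and 7.68 with si-UQCRC2. The groups were clear of each other (-0.53 ± 0.05, adjusted p = 0.00042), and the related pseudogene CASTOR3P, chosen after its values were seen, changed by -0.59 and -0.32. TESC, the calcium-binding protein tescalcin, changed by -0.46 and -0.65, the solute carrier SLC45A4 by -0.64 and -0.55, and the oxidoreductase PYROXD1 by -0.82 and -0.70. Of the 28 genes with the largest shared changes, 18 kept their call whichever array was left out. PYROXD1 (-0.76 ± 0.16, adjusted p = 0.0283), EXO1, OIP5 and H2BC3 each lost it without several single arrays, LPCAT3, ORC1, TM4SF20 and MT1H without control replicate 1 or 2, and PDE3A and GLIPR1 without control replicate 2.

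Genes of DNA replication were among the shared decreases. Of 45 listed genes 42 were tested, 7 fell under both siRNAs, or 16.7% against a background of 1.53%, and all 42 had a mean change below 0, with a median of -0.22 against 0.01 over all rows. The 7 were ORC1, CDC6, MCM5, MCM10, CDC45, GINS2 and FEN1, which load and activate the replicative helicase or process the lagging strand. ORC1, which marks replication origins, read 7.51, 7.46 and 7.27 in control, 6.71, 7.04 and 6.99 with si-FAM210B, and 6.99, 6.93 and 6.88 with si-UQCRC2. All 6 siRNA arrays lay below the controls (-0.49 ± 0.08, adjusted p = 0.0103). MCM5, a helicase subunit, read 9.04, 9.12 and 9.09 in control, 8.79, 8.85 and 8.90 with si-FAM210B, and 8.77, 8.80 and 8.71 with si-UQCRC2, a smaller change (-0.28 ± 0.05, adjusted p = 0.012) that also left no overlap. None of the 7 differed between the siRNAs by its own test in limma at an adjusted p under 0.05. In bulk samples, fewer cells in a phase of the cycle and less RNA per cell cannot be told apart.

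The array-by-array medians of this list show how single arrays bear on it. The median deviation of the 42 genes from their control means was 0.055, 0.036 and -0.100 in the control arrays, -0.413, -0.145 and -0.192 with si-FAM210B, and -0.219, -0.234 and -0.245 with si-UQCRC2. The 6 siRNA arrays lay below the 3 control arrays, control replicate 3 was the lowest control, and si-FAM210B replicate 1 was the lowest array of all. Those are the 2 arrays that stood apart over all rows. Without both, 30 of the 42 were called lower, against 1746 of all 16863 rows in that fit. The count was 20 without si-FAM210B replicate 1 (599 of all rows) and 7 without control replicate 3. It was 1 and 0 without control replicate 1 or 2, and 2, 2 and 3 without si-UQCRC2 replicate 1, 2 or 3. At an unadjusted p under 0.05 with all arrays, 33 were lower in limma, a level that 8.61% of all rows reached. The median stayed below 0 under quantile normalization (-0.20) and median centring (-0.25), with 9 and 1 members called, and with the siRNA arrays as 1 group 1 was called.

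Mitotic genes gave a similar count. Of 53 tested genes of 54 listed, 9 fell (background 1.53%), and all 53 had a mean change below 0, with a median of -0.21. AURKA, a kinase of the spindle poles, read 9.06, 9.09 and 9.04 in control, 8.52, 8.65 and 8.63 with si-FAM210B, and 8.78, 8.82 and 8.83 with si-UQCRC2. Both groups were below control, si-FAM210B further (-0.46 against -0.25, adjusted p of the difference 0.0432). NUSAP1, a spindle microtubule protein, changed by -0.35 and -0.32, and PTTG1, the securin that restrains separase, by -0.28 and -0.28. The other 6 called were CDC25B, CENPA, KIF18B, SPC24, NCAPH and BIRC5. Without the 2 deviating arrays 37 were called, against 1746 of all 16863 rows called lower in that fit. With the siRNA arrays as 1 group 1 was called. Leaving out 1 array gave 14 without si-FAM210B replicate 1, 6 and 3 without si-FAM210B replicate 2 or 3, 1 without control replicate 1 or 2, and 2, 3 and 2 without si-UQCRC2 replicate 1, 2 or 3.

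Replication-dependent histone genes, which are transcribed in S phase, and factors that build centromeres or repair DNA gave similar values. Of 20 tested histone genes of 53 listed, 4 fell, H2BC3, H2BC10, H2BC14 and H1-2 (background 1.53%), with a list median of -0.22. With the siRNA arrays as 1 group none was called in limma (at an unadjusted p under 0.05 with the siRNAs as separate groups, 12 were lower). The count was 10 without si-FAM210B replicate 1, 2 without si-UQCRC2 replicate 1, and 1 without any one of the control arrays or of si-UQCRC2 replicates 2 and 3. H2BC10 changed by -0.71 and -0.41 (adjusted p = 0.00894), whereas H2BC14 changed by -0.12 and -0.55, a difference between the siRNAs that passed its test (adjusted p = 0.00765). EXO1, a DNA repair exonuclease, changed by -0.57 and -0.48. OIP5, a subunit of the complex that prepares centromeres for new CENP-A, read 6.97, 6.80 and 6.57 in control, 5.98, 6.40 and 6.32 with si-FAM210B, and 6.29, 6.28 and 6.10 with si-UQCRC2. The groups did not overlap (-0.55 ± 0.11, adjusted p = 0.0232). HJURP, the chaperone that deposits CENP-A, and the repressor E2F8, both chosen after their values were seen, changed by -0.37 and -0.42 and by -0.42 and -0.63.

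Many replication genes are known targets of E2F factors, and 3 promoters of genes in these groups are shown because they hold an E2F motif. They are from the same RefSeq table, and capitals mark TTTCCCGC, TTTGGCGC, TTTCGCGC or TTTGCCGC on either strand, with overlapping matches counted. CDC6 lies at chr17:40287629-40287928 on the plus strand, GINS2 at chr16:85688905-85689204 and OIP5 at chr15:41332542-41332841, both on the minus strand.
CDC6: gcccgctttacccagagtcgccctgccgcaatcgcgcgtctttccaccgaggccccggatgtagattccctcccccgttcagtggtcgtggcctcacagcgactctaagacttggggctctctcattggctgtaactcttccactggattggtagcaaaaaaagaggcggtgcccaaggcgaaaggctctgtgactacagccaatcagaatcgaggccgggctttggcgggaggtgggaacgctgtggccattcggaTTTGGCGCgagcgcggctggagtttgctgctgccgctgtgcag
GINS2: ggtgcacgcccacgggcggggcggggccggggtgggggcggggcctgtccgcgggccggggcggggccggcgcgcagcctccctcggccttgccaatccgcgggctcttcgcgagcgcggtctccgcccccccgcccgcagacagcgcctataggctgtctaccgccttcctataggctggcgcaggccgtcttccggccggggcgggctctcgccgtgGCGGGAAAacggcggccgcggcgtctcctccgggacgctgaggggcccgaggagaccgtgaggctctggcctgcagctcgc
OIP5: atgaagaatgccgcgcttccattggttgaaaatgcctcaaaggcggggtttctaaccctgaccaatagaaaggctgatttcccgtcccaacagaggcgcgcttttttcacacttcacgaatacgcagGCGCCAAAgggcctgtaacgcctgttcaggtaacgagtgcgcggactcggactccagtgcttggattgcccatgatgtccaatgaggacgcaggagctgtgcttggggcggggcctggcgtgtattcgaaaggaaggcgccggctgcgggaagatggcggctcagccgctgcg
Of all 35116 promoters, 3.31% held at least 1 such motif. Among the replication genes it was found in 2 of the 6 called genes with a promoter in the table and in 16 of the 30 uncalled genes with one. As above, a match describes the letters alone.

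**Figure D4:**
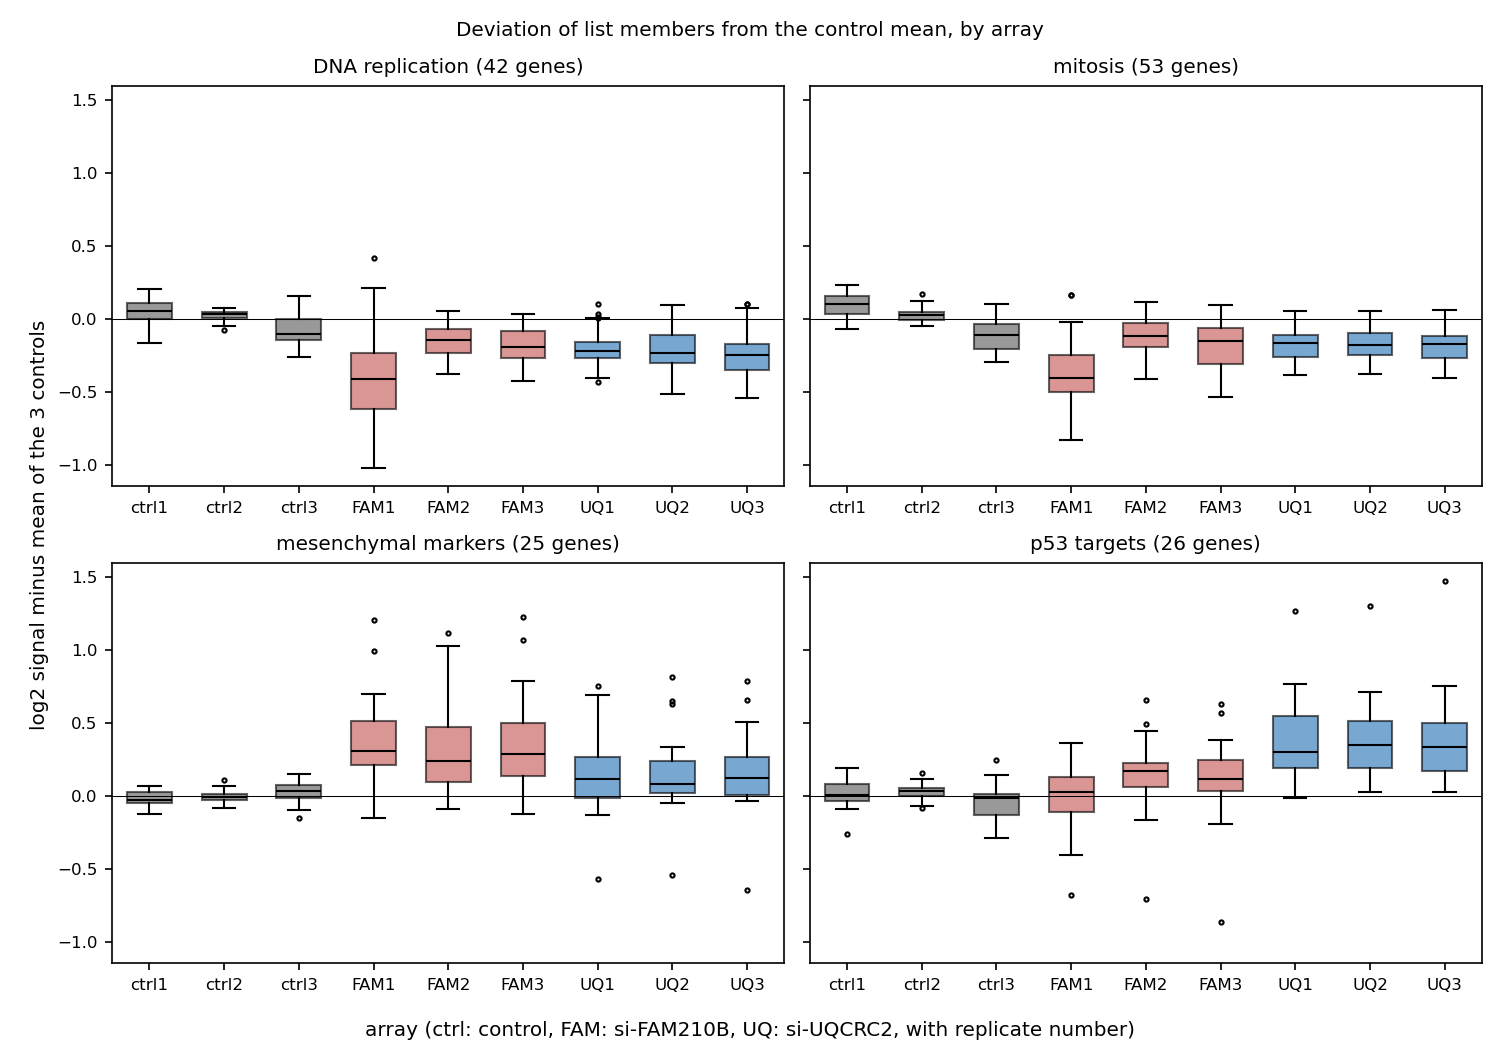
Deviation of each list member from its mean over the 3 control arrays, in log2 units, by array, for DNA replication (42 genes), mitosis (53), mesenchymal markers (25) and p53 targets (26). Lines in the boxes are medians, boxes span the middle quartiles, whiskers reach the farthest gene within 1.5 box lengths and circles are genes beyond them; replication and mitosis medians lie below 0 in the 6 siRNA arrays and lowest in si-FAM210B replicate 1.

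Targets of p53, the transcription factor that answers DNA damage and other stresses, were among the increases. Of 26 tested genes of 30 listed, 7 rose (26.9% against 2.43%), and 25 had a mean change above 0, with a list median of 0.12 under si-FAM210B and 0.34 under si-UQCRC2. TP53I3, a quinone oxidoreductase, read 7.65, 7.70 and 7.68 in control, 8.03, 8.33 and 8.30 with si-FAM210B, and 8.20, 8.28 and 8.26 with si-UQCRC2. Both groups were above control by similar amounts (0.56 ± 0.07, adjusted p = 0.0019; difference -0.02 ± 0.08). GADD45A, a stress-induced growth arrest protein, changed by 0.37 and 0.55. The other 5 differed between the siRNAs, each with the larger rise under si-UQCRC2. Among them, FAS, a death receptor, changed by 0.18 and 0.56, MDM2, the ubiquitin ligase of p53, by 0.26 and 0.74, and TP53INP1 by 0.36 and 1.34. SPATA18 and ZMAT3 completed the 7. CDKN1A, the cell cycle inhibitor p21, changed by 0.13 and 0.35 and did not pass the test (adjusted p = 0.121). The count was 14 without si-FAM210B replicate 1 and 16 without both deviating arrays, fits that called 761 and 1353 of all 16863 rows higher. It was 5 under median centring or without control replicate 2, and 2 with the siRNA arrays as 1 group. By array, the median deviation of the list was 0.024, 0.168 and 0.113 with si-FAM210B and 0.299, 0.351 and 0.334 with si-UQCRC2, against -0.012 to 0.037 in the controls, so si-FAM210B replicate 1 lay within the control range.

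Mesenchymal markers also held increases. Of 25 tested genes of 30 listed, 10 rose, or 40.0% against 2.43%. The list median was 0.19, with 0.24 under si-FAM210B and 0.13 under si-UQCRC2. Of the 10 called, 6 also differed between the siRNAs by the test of the difference in limma. SPARC, a matrix glycoprotein, read 6.69, 6.73 and 6.76 in control, 7.71, 7.75 and 7.79 with si-FAM210B, and 7.26, 7.38 and 7.23 with si-UQCRC2. Every siRNA array exceeded every control array (0.80 ± 0.05, adjusted p = 6.38e-05), with the larger rise under si-FAM210B (1.03 against 0.56, adjusted p of the difference 0.00175). ACTA2, the smooth muscle actin, changed by 0.47 and 0.27, the receptor kinase AXL by 0.44 and 0.33, and fibronectin, FN1, by 0.50 and 0.76. THY1, CALD1, COL5A1 and MYL9 were also called, and MMP2 was called with a change of 0.70 under si-FAM210B and 0.03 under si-UQCRC2. The intermediate filament VIM (0.32 and 0.06, adjusted p = 0.056) and the cadherin CDH2 (0.52 and 0.20, adjusted p = 0.054) did not pass, nor did the transcription factors SNAI2, TWIST1 and ZEB1. The fibroblast markers COL1A1, COL1A2 and PDGFRB, with changes of 0.31 and -0.09, 0.15 and -0.07, and 0.16 and -0.02, were not called. The count was 6 with the siRNA arrays as 1 group, and 7 to 13 when 1 array was left out, with the highest without si-FAM210B replicate 1.

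Epithelial markers held few calls. Of 29 tested, 2 rose and 1 fell (background 2.43% and 1.53%), and 23 had a mean change above 0, with a median of 0.09 under si-FAM210B and 0.08 under si-UQCRC2. Without si-FAM210B replicate 1 the count that rose was 5, and with the siRNA arrays as 1 group no member was called in limma (at an unadjusted p under 0.05 with the siRNAs as separate groups, 6 were higher and 2 lower). CDH1, the epithelial cadherin, read 7.67, 7.72 and 7.62 in control, 6.53, 6.59 and 6.63 with si-FAM210B, and 7.48, 7.59 and 7.57 with si-UQCRC2. It was called common, with a fall of more than a unit under si-FAM210B and only -0.13 under si-UQCRC2 (adjusted p = 0.336 for the latter), and the difference of -0.96 ± 0.06 between the siRNAs was itself called (adjusted p = 2.56e-05). The keratin KRT19 (0.24 and 0.73) and the desmosomal PKP2 (0.10 and 0.56) rose, each more under si-UQCRC2 (adjusted p of the difference 0.0024 and 0.000825). CDH1, MMP2 and UQCRC2 are among the rows in which the shared sign came with a small change in 1 of the 2 siRNA groups. Others are IFITM3 (0.01), IGFBP1 (0.07) and PKP2 (0.10) under si-FAM210B. Under si-UQCRC2 they are NR4A2 (-0.07), FOSL1 (0.08), ITGA11 (0.10) and IL11 (0.11). None of these others passed the test of that siRNA against control (limma adjusted p from 0.242 to 0.967). In that siRNA group, arrays of IFITM3, IGFBP1, NR4A2, FOSL1 and IL11 overlapped control.

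Matrix and adhesion genes held further increases. Of 32 tested collagens, laminins and integrins, 8 rose (background 2.43%), among them the fibronectin receptor subunit ITGA5 (0.38 and 0.31, adjusted p = 0.00502), the collagen chain COL4A5 (0.16 and 0.42) and the collagen receptor ITGA11 (1.02 and 0.10). Control and si-UQCRC2 arrays of ITGA11 lay close, at 5.67 to 5.80 and 5.81 to 5.88. Of 19 matrix proteases and their inhibitors, 6 rose (background 2.43%): MMP2, ADAM19, PLAU, PLAUR, SERPINE2 and TIMP1. SERPINE2, a protease inhibitor, changed by 0.35 and 0.71, and PLAUR, the urokinase receptor, by 0.43 and 0.56. The adhesion count fell to 2 without control replicate 1 or 2, to 4 without si-UQCRC2 replicate 1 or 2 and to 5 without si-UQCRC2 replicate 3. The protease count fell to 4 and 3 without control replicate 1 or 2. With the siRNA arrays as 1 group both counts were 1. Among 35 actin and contractile genes 3 rose (background 2.43%), TGFB1I1 (1.32 and 0.57), LIMA1 (0.34 and 0.77) and MYL9 (0.61 and 0.20), and the count was 8 without si-FAM210B replicate 1. With the siRNA arrays as 1 group none was called in limma (at an unadjusted p under 0.05 with the siRNAs as separate groups, 9 were higher and 1 lower).

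The TGF-beta, activin and BMP pathway held calls in both directions. Of 40 tested genes 5 rose and 4 fell (background 2.43% and 1.53%), and with the siRNA arrays as 1 group the counts were 2 and 1. The secreted antagonists GREM1 (1.70 and 1.08) and FST, which binds activin (0.74 and 0.23), rose, as did the receptor TGFBR1 (0.25 and 0.56), the matrix binder LTBP2 (0.46 and 0.37) and the ubiquitin ligase SMURF2 (0.28 and 0.46). The activin subunit INHBB fell, with 7.96, 8.11 and 7.87 in control, 6.18, 6.83 and 6.74 with si-FAM210B, and 7.54, 7.61 and 7.55 with si-UQCRC2. All siRNA arrays lay below control, those of si-FAM210B well below those of si-UQCRC2 (adjusted p of the difference 0.00385). The BMP target genes ID1 (-0.57 and -0.21) and ID2 (-0.35 and -0.40) fell, as did the co-receptor TGFBR3 (-0.46 and -0.02). The count of genes that rose was 11 without si-FAM210B replicate 1, and that of genes that fell was 2 without control replicate 1 or 2.

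Targets of the coactivator YAP rose in 5 of 23 cases (21.7% against 2.43%). Besides NT5E and AXL these were the matricellular proteins CCN1 (0.34 and 0.36, adjusted p = 0.00603) and CCN2 and the phosphatase PTPN14. CCN2 read 7.12, 7.32 and 7.37 in control, 8.33, 8.07 and 8.02 with si-FAM210B, and 7.78, 7.85 and 7.69 with si-UQCRC2. Its siRNA arrays were all above control, more so under si-FAM210B (0.87 against 0.50, adjusted p of the difference 0.0413). ANKRD1, another target, changed by 0.64 and 0.44 and did not pass (adjusted p = 0.053). The count was 9 without si-FAM210B replicate 1.

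Signalling and inflammatory genes gave smaller counts. The chemokine CCL2 rose (0.69 and 0.32, adjusted p = 0.00234), with IL11 (0.74 and 0.11) and the kinase IRAK2 (0.46 and 0.26) among the 4 of 22 called in the list of chemokines, cytokines and NF-kappaB genes (background 2.43%). Without si-FAM210B replicate 1 the count was 7, and with the siRNA arrays as 1 group it was 0 in limma (at an unadjusted p under 0.05 with the siRNAs as separate groups, 9 were higher and 1 lower). Of 26 interferon-stimulated and RNA-sensing genes, 2 rose (background 2.43%): IFI16, a DNA sensor (0.52 and 0.17), and IFITM3 (0.01 and 0.61), whose si-FAM210B arrays overlapped control. Neither kept its call without control replicate 1 or 2 or without any si-UQCRC2 array. The control mean of IFI16, at 4.18, lay below the filter level of 4.25, and IFI16 passed with a mean of 4.41 over the 9 arrays. DGKA, a diacylglycerol kinase, rose under both siRNAs and much more under si-UQCRC2, with 6.74, 6.75 and 6.73 in control, 7.04, 7.23 and 7.18 with si-FAM210B, and 8.05, 8.04 and 8.08 with si-UQCRC2. The 3 groups were fully separate (adjusted p of the difference 4.07e-05). Of 20 immediate early and AP-1 genes (background 2.43% and 1.53%), 2 rose, JUNB (0.64 and 0.41) and FOSL1 (0.65 and 0.08), and 2 fell, NR4A2 (-0.54 and -0.07) and NR4A1 (-0.42 and -0.45), and without control replicate 1 or 2 no member was called in limma (at an unadjusted p under 0.05 with all arrays, 4 were higher and 3 lower).

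Binding proteins of insulin-like growth factors and lysosomal genes also held calls. IGFBP7 changed by 0.52 and 1.02 (adjusted p = 0.00042), with the larger rise under si-UQCRC2 (adjusted p of the difference 0.00627), and IGFBP1 and IGFBP6 by 0.07 and 0.57 and by 0.12 and 0.38. The call of IGFBP1 was lost without control replicate 1 or 2, and that of IGFBP6 without any 1 control or si-UQCRC2 array. Of 16 tested genes of the IGF pathway these 3 rose and the insulin receptor INSR fell (-0.29 and -0.13), against a background of 2.43% and 1.53%. The count that rose was 1 without control replicate 1 or 2 or with the siRNA arrays as 1 group. CD68, a lysosomal membrane glycoprotein best known from macrophages, read 7.82, 7.87 and 7.98 in control, 8.69, 8.54 and 8.54 with si-FAM210B, and 8.54, 8.53 and 8.51 with si-UQCRC2. It rose without overlap (0.67 ± 0.06, adjusted p = 0.000335) and was the 1 called of 8 tested markers of other cell types (background 2.43%). Over all 9 arrays the T-cell marker CD3E lay between 4.42 and 4.86 and the monocyte marker CD14 between 4.89 and 5.32, and neither was called. The autophagy genes WIPI1 (mean change 0.70 ± 0.07, larger under si-UQCRC2, adjusted p of the difference 0.0032) and OPTN (0.34 and 0.36) rose as well, and with CD68 they were the 3 of 35 lysosomal and autophagy genes that rose. GLA, the lysosomal alpha-galactosidase, fell (-0.49 and -0.42, adjusted p = 0.0199), and the list median was -0.03 (background 2.43% and 1.53%).

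Among antioxidant genes the calls were decreases. Of 22 tested targets of NRF2, the factor that induces antioxidant enzymes and is known to be active in A549 cells, 2 fell (background 1.53%), and the median was -0.18. GCLC, the catalytic subunit of the first enzyme of glutathione synthesis, read 8.10, 8.07 and 7.89 in control, 7.13, 7.45 and 7.43 with si-FAM210B, and 7.58, 7.62 and 7.67 with si-UQCRC2. All 6 siRNA arrays were lower (-0.54 ± 0.08, adjusted p = 0.00513). TKT, the transketolase of the pentose phosphate pathway, changed by -0.19 and -0.30. The count was 7 without si-FAM210B replicate 1 and 1 without control replicate 1 or 2 or without si-UQCRC2 replicate 1 or 2. Of 37 cytochrome P450, aldehyde dehydrogenase and conjugation genes, 5 fell (background 1.53%), among them the sulfotransferase SULT2B1 (-0.66 and -0.40, adjusted p = 0.000494) with ALDH3A1, CYP4F3, CYP4F11 and CYP4F12. That count was 8 without si-FAM210B replicate 1 and 3 without any one of the control arrays or of si-UQCRC2 replicates 1 and 3.

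Mitochondrial genes held few shared calls. Both targeted genes encode mitochondrial proteins, but a lower FAM210B message was not detected in the si-FAM210B arrays. Of 31 tested genes of complex I, 27 of complexes II, IV and V and 74 mitochondrial ribosomal proteins, none was called in limma, and 2, 2 and 11 were lower at an unadjusted p under 0.05, a level that 8.61% of all rows reached. Of the 74 mitochondrial ribosomal genes, 11 had a mean change above 0. Without both deviating arrays 10 of them were called lower, against 1746 of all 16863 rows in that fit. The median changes of the 3 lists were -0.05, -0.03 and -0.07. In complex III, UQCRC2 itself was the 1 call among 13 (background 1.53% lower). PDP1, the phosphatase that activates pyruvate dehydrogenase, rose (0.40 and 0.51, adjusted p = 0.000729) as the 1 call among 13 genes of that enzyme and its regulators (background 2.43% higher). The control arrays of PDP1 lay between 5.77 and 5.79 and the siRNA arrays between 6.10 and 6.30. Of 35 HIF1 targets and glycolytic genes 2 fell (background 1.53%), HILPDA (-0.64 and -0.11) and CA12 (-0.50 and -0.23), both more under si-FAM210B by the test of the difference (adjusted p = 0.00188 and 0.0455). Without control replicate 1, 1 of them was called, and without control replicate 2 neither was. Over the 45 lists, 9 had no called member, among them the integrated stress response, endoplasmic reticulum chaperones, cholesterol synthesis and cytosolic ribosomal proteins. Of the 266 genes tested in those 9, 7 were higher and 22 lower at an unadjusted p under 0.05, or 2.63% and 8.27%, against 7.21% and 8.61% of all rows.

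**Figure D5:**
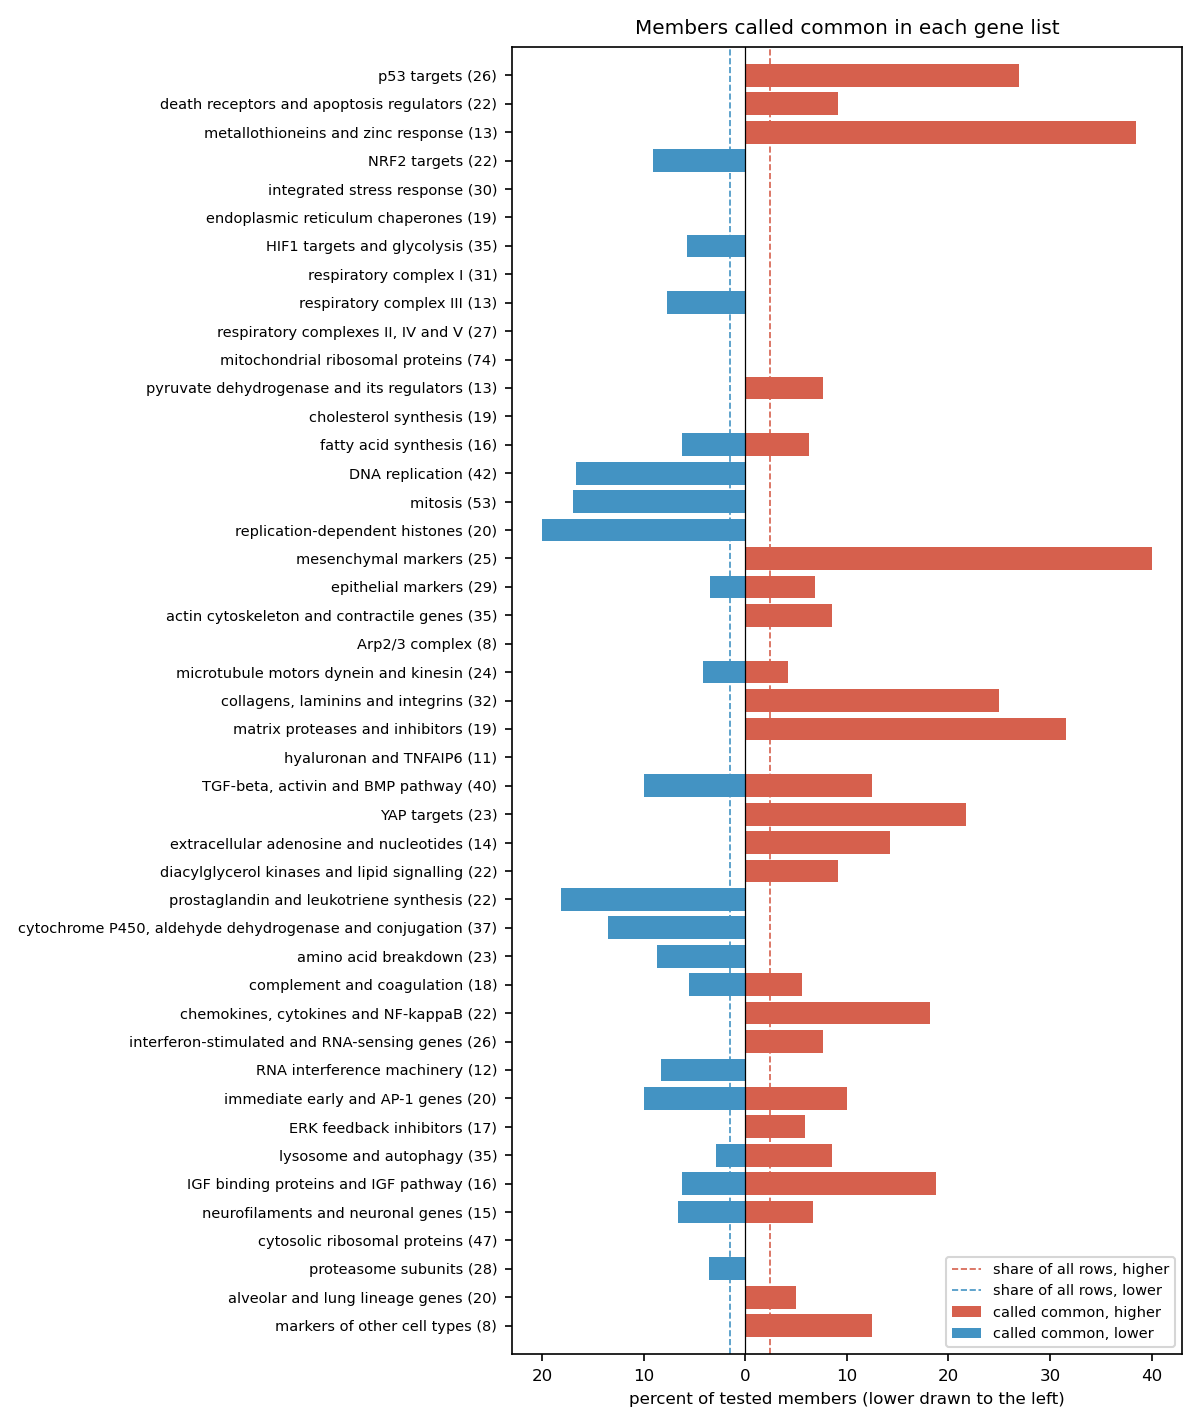
Percent of the tested members of each gene list (number tested in brackets) called higher (red, to the right) or lower (blue, to the left) under both siRNAs, with dashed lines at the share over all rows, 2.43% and 1.53%. Mesenchymal markers and metallothioneins reach farthest to the right, and histone, prostaglandin, mitosis and replication lists farthest to the left.

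RNAs without a protein product were few among the calls. Of 896 long noncoding RNA rows 3 rose and 7 fell, or 0.335% and 0.781%, below the shares over all rows (2.43% and 1.53%). MEG3, an imprinted long noncoding RNA on chromosome 14, read 6.40, 6.45 and 6.44 in control, 6.92, 6.73 and 6.74 with si-FAM210B, and 6.78, 6.69 and 6.76 with si-UQCRC2, a rise without overlap (0.34 ± 0.06, adjusted p = 0.00895). Small nucleolar RNAs of the SNORD113 and SNORD114 families, which are encoded in the same imprinted region, were called higher in 5 of 13 rows (background 2.43%). The median change of the 13 was 0.33, and whether rows of these families share signal was not tested. SNORD114-14 changed by 0.32 and 0.69 and SNORD114-17 by 0.17 and 0.76, both more under si-UQCRC2 (adjusted p of the difference 0.01 and 0.016). SNORD114-3 changed by 0.30 and 0.79, SNORD114-1 by 0.27 and 0.38 and SNORD113-4 by 0.23 and 0.35, and none of these 3 differed between the siRNAs by its test in limma. The si-FAM210B arrays of SNORD114-17, SNORD114-3 and SNORD113-4 overlapped control. Their changes did not pass the si-FAM210B test (limma adjusted p = 0.348, 0.216 and 0.0911). Control means of SNORD113-4 and SNORD114-3, at 4.34 and 4.42, lay near the filter level of 4.25. OIP5-AS1 fell together with OIP5 (-0.55 and -0.51, adjusted p = 0.00374). OIP5-AS1, OIP5 and NUSAP1 are neighbours on chromosome 15 in RefSeq, and all 3 fell, but the sources used here do not say whether the array tells the strands apart, so the antisense value is uncertain. These RNAs were chosen for naming after their values were seen.

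Of 429 microRNA rows 1 rose and 2 fell, which is below the shares over all rows. MIR503 changed by 0.36 and 0.19 (adjusted p = 0.0456), MIR4521 by -0.40 and -0.37 (adjusted p = 0.043) and MIR548H4 by -0.59 and -0.08. Array rows of this kind may read the precursor rather than the mature RNA. The mature sequences of MIR4521 and of both arms of MIR503 are shown, from RefSeq on GRCh38.p14, because they identify the products of the 2 rows in which all 6 siRNA arrays lay on the same side of control. Capitals mark the seed, bases 2 to 8, and no 2 of the 3 seeds are the same. They lie at chr17:8186948-8186969 on the plus strand and at chrX:134546331-134546353 and chrX:134546371-134546393 on the minus strand, in the order listed.
hsa-miR-4521: gCUAAGGAaguccugugcucag
hsa-miR-503-3p: gGGGUAUUguuuccgcugccagg
hsa-miR-503-5p: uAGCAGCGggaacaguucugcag
MIR503 read 6.54, 6.76 and 6.66 in control, 6.99, 6.97 and 7.07 with si-FAM210B, and 6.95, 6.76 and 6.81 with si-UQCRC2. MIR4521 read 7.63, 7.31 and 7.64 in control, 6.93, 7.25 and 7.18 with si-FAM210B, and 7.16, 7.18 and 7.12 with si-UQCRC2. The separation was narrow in both, since the lowest siRNA array of MIR503 and its highest control array both read 6.76, and the nearest arrays of MIR4521 read 7.25 and 7.31.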

How the data were processed

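Per the labels' protocols, RNA of A549 cells was labelled with biotin and hybridised to Affymetrix arrays. The submitters' processing notes name RMA, and the values the authors deposited are on a log2 scale. RMA corrects background, equalises the distribution of probe signals over arrays and combines the probes of a transcript, which can compress small differences. For its version, software and annotation, the sources used here give nothing. Array medians ranged from 4.20 to 4.40. Precision is limited by how many arrays there are.

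Symbols came from the platform annotation and were updated with RefSeq records of GRCh38.p14. Of 67528 rows, 23781 had 1 symbol, 1543 several and 42204 none. Of the 23781, an Entrez identifier matched 21497, a symbol 1974 and a synonym 306, while 4 kept their name.

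All 9 arrays entered 1 linear model with 3 group means in limma 3.58.1 under R 4.3.3 (lmFit and eBayes), with 6 residual degrees of freedom. Adjusted p-values are limma's, by the Benjamini-Hochberg method over 16863 rows. Both siRNA comparisons share the control arrays. Genes were chosen for naming by rule. They are FAM210B, UQCRC2, and the 14 largest protein-coding increases and 14 decreases without overlap between siRNA and control arrays. Size was ranked by the smaller siRNA change. Up to 3 called members of each of 45 lists (1320 genes) were added. Some of these list members and some lists are not described above. Among such lists is that of prostaglandin and leukotriene synthesis, with 4 of 22 tested members called lower (background 1.53%). A gene with several rows is given by its row with the highest mean. Other genes, including further members of a list and of a gene family, were chosen after their values were seen. The members and the lists were chosen with earlier results of these data known, so their counts and medians are descriptions. Alternatives changed the filter, normalization, prior, weights, grouping, pairing and the arrays used.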

Additional observations from a re-analysis of the deposited data

Results flagged for a closer look

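Rows with several gene symbols or none are outside the comparisons above. In a fit of their own, 81 of 16901 such rows were called common (0.479%), of which 48 were higher and 33 lower under both siRNAs. They stand here as signal outside the main measurement, and they are not named because no single gene could be given to them.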

How the results depend on the processing

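The main counts were 668 common rows (410 higher, 258 lower) and 1667 rows that differed between the siRNAs. None of the 668 turned the sign of its mean change under any alternative in which it was tested, whereas the counts moved widely. Signs within each siRNA group were not compared with the main fit. With array weights, estimated gene by gene because limma's REML estimate did not converge and lowest (0.0938) for si-FAM210B replicate 1, there were 5499 common rows (2853 higher, 2646 lower) and 7825 that differed between the siRNAs. Without si-FAM210B replicate 1 and control replicate 3 together the counts were 3099 (1353 higher, 1746 lower) and 3980. Median centring of each array gave 413 common rows (244 higher, 169 lower). With the 6 siRNA arrays as 1 group, so that differences between the siRNAs enter the spread, 157 were left (114 higher, 43 lower). The siRNA arrays alone gave 1091 rows that differed between them. Leaving out 1 array gave 222 to 1360 common rows, 168 to 761 higher, 53 to 599 lower, and 502 to 3431 that differed between the siRNAs. The cause of these moves was not tested. The remaining settings (dropping or tightening the filter, 1 row per gene, quantile normalization, an intensity trend in the prior) stayed within 1.5 times of the main counts, with 570 to 662 common rows. Of the 668, 661 kept their call without the 2 deviating arrays, 546 under quantile normalization and 345 under median centring. The share of higher rows among the calls was 61.4%, and it was 43.7% without the 2 deviating arrays. Over 96 named genes and their alternatives, 268 of 1809 values lost their call and no mean change of both siRNAs turned its direction.

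The replicate numbers did not pair the arrays: correlations of same-numbered deviations from the group means were -0.571, 0.51 and -0.383 between si-FAM210B and control, and between -0.069 and 0.073 in the pairs with si-UQCRC2. With the replicate number as a block there were 292 common rows (211 higher, 81 lower) and 839 that differed between the siRNAs.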
